A study of Mus musculus with 16 samples.

Results

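Interferon-stimulated genes were followed in 16 one-colour arrays of primary mouse podocytes, as a set of 38 named genes read gene by gene and array by array. The set was chosen by name, and each gene was read from its brightest probe, tested where every array of 1 group or more showed it well above background. Of the 38 genes, 36 were matched to 55 probes and 32 could be tested, out of 14092 tested genes in all. Rsad2, Oas2, Oas3 and Ifi44 had probes but were too dim to be tested, and Mx1 and Mx2 were not analysed here. The podocytes grew out of glomeruli isolated with magnetic beads from the kidneys of male Jcl:ICR mice and were kept on type I collagen. In Tsc2Δpodocyte mice a Cre transgene active in podocytes deleted floxed Tsc2, a gene whose product restrains the growth kinase mTORC1, and the Tsc2flox/flox controls carried the same floxed alleles without Cre. Each genotype gave 4 cultures from untreated mice of 4 weeks of age and 4 from mice of 5 weeks of age, 1 week after rapamycin, an inhibitor of mTORC1. The untreated arrays lay on 1 slide and the rapamycin arrays on another, so treatment, age and slide cannot be told apart, and on both slides each genotype had a row of its own, so genotype and row cannot be told apart. Whether each of the 4 cultures of a group had its own mouse is not stated, and p-values here measure the spread between these cultures, which may be technical.

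Type I interferons are secreted when a cell senses foreign or misplaced nucleic acid. They bind a receptor made of IFNAR1 and IFNAR2, whose kinases JAK1 and TYK2 activate STAT2 within a complex with IRF9 that binds the interferon-stimulated response element (ISRE) in the promoters of its targets. Interferon gamma acts through a separate receptor and on gamma-activated sites (GAS). The induced genes encode nucleic acid sensors, factors that amplify the response, the ubiquitin-like ISG15 and its protease USP18, IFIT and OAS proteins that act on foreign RNA, GTPases, chemokines and proteasome subunits. Podocytes, the epithelial cells that cover the glomerular capillaries, respond to interferons like most cells.

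The promoters of 5 members are printed because these genes carry the patterns described here: Isg15, Ifit1, Oas1a and Gbp3 were among the genes that stood high in single cultures, and Irgm1 was the member that was lower in Tsc2Δpodocyte cells. Each line gives the 130 bases before a start site, from RefSeq (GRCm38.p6). Capitals mark matches to the ISRE letters (GAAA, any 2 bases, GAAA) on either strand, with overlapping matches joined.
Isg15, chr4:156200819-156200948, minus strand: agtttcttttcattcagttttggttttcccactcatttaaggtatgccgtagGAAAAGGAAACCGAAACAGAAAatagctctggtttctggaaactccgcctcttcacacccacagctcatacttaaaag
Ifit1, chr19:34640759-34640888, plus strand: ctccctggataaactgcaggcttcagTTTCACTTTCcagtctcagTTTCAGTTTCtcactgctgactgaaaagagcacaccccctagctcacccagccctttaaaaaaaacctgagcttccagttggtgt
Oas1a, chr5:120907526-120907655, minus strand: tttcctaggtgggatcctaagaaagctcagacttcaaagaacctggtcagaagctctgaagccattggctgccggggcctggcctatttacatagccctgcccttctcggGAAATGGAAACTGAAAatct
Gbp3, chr3:142559914-142560043, plus strand: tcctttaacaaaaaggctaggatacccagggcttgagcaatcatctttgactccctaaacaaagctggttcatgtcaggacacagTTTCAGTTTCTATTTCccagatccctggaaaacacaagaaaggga
Irgm1, chr11:48871421-48871550, minus strand: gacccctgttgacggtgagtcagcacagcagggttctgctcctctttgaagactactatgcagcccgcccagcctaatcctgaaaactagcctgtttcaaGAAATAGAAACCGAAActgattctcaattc
The RefSeq promoter table held 28 of the 38 members, 4 of them with 2 promoters. A gene was counted where any of its promoters held the letters, among members and all genes alike. In the 250 bases before the start, 14 of these 28 held the ISRE letters, against 3.46% of all 27025 genes of the table, and 7 held the GAS letters TTCNNNGAA, a palindrome, against 8.13%. In Bst2 an ISRE match and a GAS match share bases. Isg15 had 3 overlapping ISRE matches, and Ifit1, Oas1a, Gbp3 and Irgm1 had 2 each. Another Gbp3 promoter of the table had 0 ISRE matches, and the printed promoter was the one that held them. The matches are a description of these letters and not binding sites.

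Signals are given as normalized log2 signals, the log2 of a probe's intensity minus that of its array's 75th percentile, so a value of 0 equals that percentile and a difference of 1 is a 2-fold change. An array held 62976 spots, 3671 of them controls. Among the spots other than controls, between 28696 and 32918 were well above background on an array. The Tsc2 signal was 2.07 ± 0.17 in Tsc2Δpodocyte and 3.42 ± 0.34 in Tsc2flox/flox cells (SD, n = 4 each), a log2 difference of -1.35 (adjusted p = 0.00097 by limma), and on the rapamycin slide the difference was -0.99 (adjusted p = 0.0124 by limma). Whether these probes lie in the deleted exons was not examined. All 10 podocyte markers were tested, as were all 10 endothelial, 7 mesangial and 6 parietal epithelial markers and 11 of 13 leukocyte markers. Of 6 tubule markers 3 were tested, and Slc34a1 and Umod were never above background. The summed endothelial markers ran from 8.25 to 115 times the 75th percentile on untreated arrays and from 5.41 to 13.8 on rapamycin arrays. In such cultures, fewer cells of a type and less RNA per cell cannot be told apart.

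Single cultures stood apart in the interferon-stimulated genes. Tsc2Δpodocyte replicate 2 had the highest signal of its group in 26 of 32 members, where 40.2% of all tested genes were highest on that array. Tsc2flox/flox + Rapamycin replicate 2 was highest of its group in 28 of 32 members, against 25.4% of all genes. Tsc2Δpodocyte + Rapamycin replicate 2 was highest in 21 of 32, against 25.6% of all genes. In untreated Tsc2flox/flox cells no array dominated in this way, replicate 1 being highest in 13 members (27.1% of all genes) and replicates 2, 3 and 4 in 6, 7 and 6 (30.3%, 20.4% and 22.2% of all genes). Replicate 4 was highest in no member in Tsc2Δpodocyte, Tsc2Δpodocyte + Rapamycin and Tsc2flox/flox + Rapamycin cells, where it was highest in 18.7%, 24.9% and 26.4% of all genes. The other arrays were each highest in few members, 8 on Tsc2Δpodocyte + Rapamycin replicate 3 (38.2% of all genes), 3 on replicate 1 of that group (11.3%), 3 each on Tsc2Δpodocyte replicates 1 and 3 (18.7% and 22.5%), and 1 and 3 on Tsc2flox/flox + Rapamycin replicates 1 and 3 (26.8% and 21.4%).

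**Figure D1:**
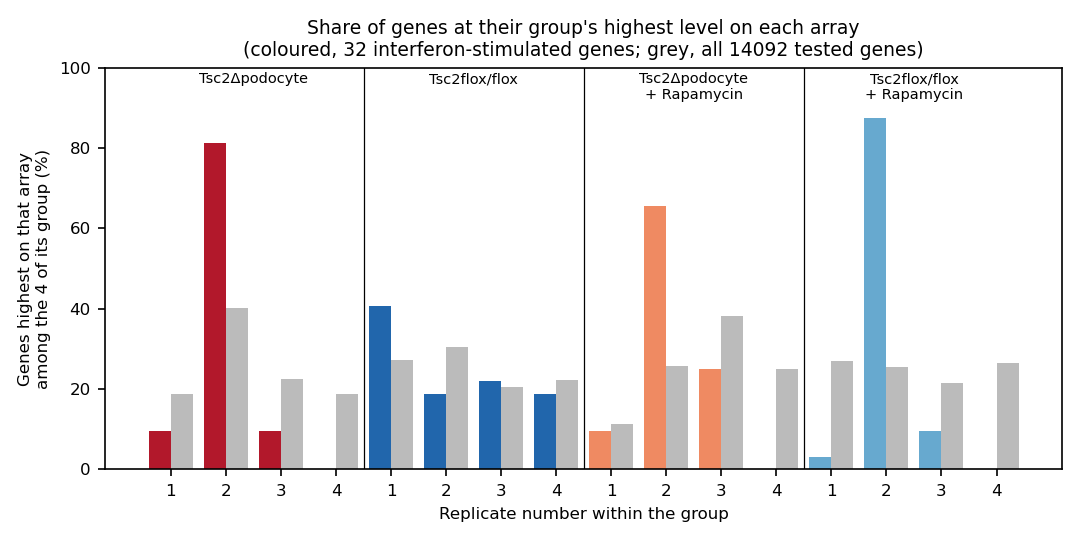
Share of genes, in percent, whose highest signal among the 4 arrays of a group lay on the array shown, for the 32 tested interferon-stimulated genes (coloured bars) and all 14092 tested genes (grey bars). The coloured bars stand far above the grey ones on replicate 2 of Tsc2Δpodocyte (26 genes), Tsc2Δpodocyte + Rapamycin (21 genes) and Tsc2flox/flox + Rapamycin (28 genes).

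The size of the excess was uneven across members. Against the mean of the other 3 cultures of its group, Tsc2Δpodocyte replicate 2 had a median log2 excess of 0.68 over the members and 0.05 over all genes, and Tsc2flox/flox + Rapamycin replicate 2 had 0.79 and -0.05. In each of these cultures 13 members were over 2-fold above the other 3 (2.06% and 5.12% of all genes). Members over 2-fold above in both were Irf7, Isg15, Usp18, Ifit1, Oas1a, Oasl2, Rtp4 and Gbp3, 8 of 32 or 25.0%, where 41 of all 14092 genes, 0.291%, did the same. In both cultures 23 members were highest of their group, 71.9% against 8.03% of all genes. The 9 that were not highest in both were Irf1, Stat2, Ifit2, Ifit3, Bst2, Oasl1, Parp14, Irgm1 and Cxcl10. Of the 6 genes over 2-fold above in both that have a promoter in the table, Isg15, Ifit1, Oas1a and Gbp3 held ISRE letters and Irf7 and Oasl2 did not. Of the genes highest in both, 7 of 17 with a promoter held ISRE letters, and of the tested genes not highest in both, 5 of 8. The high arrays were singled out after their values were seen, so these counts describe them and carry no test.

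The markers of other cells were read on the same arrays. The summed signal of 13 leukocyte markers, in units of the 75th percentile, was 48.1 in Tsc2Δpodocyte replicate 2 and between 42.7 and 68.9 in the other 3 cultures. It was 40.1 in Tsc2flox/flox + Rapamycin replicate 2 and between 36.9 and 38.6 in the other 3. The summed podocyte markers were highest of their group in both arrays, at 261 against 138 to 167 in the first and 184 against 144 to 163 in the second. The summed parietal epithelial markers also stood apart on both, in opposite directions, at 30.0 against 55.9 to 113 in the first and 329 against 89 to 157 in the second. The mesangial sum was 833, within the 698 to 961 of the others, in the first and 568 against 631 to 680 in the second. The endothelial sum was 12.0 against 17.6 to 94.4 in the first and 6.49, within the 6.27 to 13.8 of the others, in the second. The tubule sum was lowest of its group in both, at 0.38 against 0.48 to 0.99 and 1.10 against 1.29 to 2.04. Ncr1, a natural killer cell marker, was not well above background on any array. Whether the makeup of the cultures had a part in the interferon pattern was not tested.

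**Figure D2:**
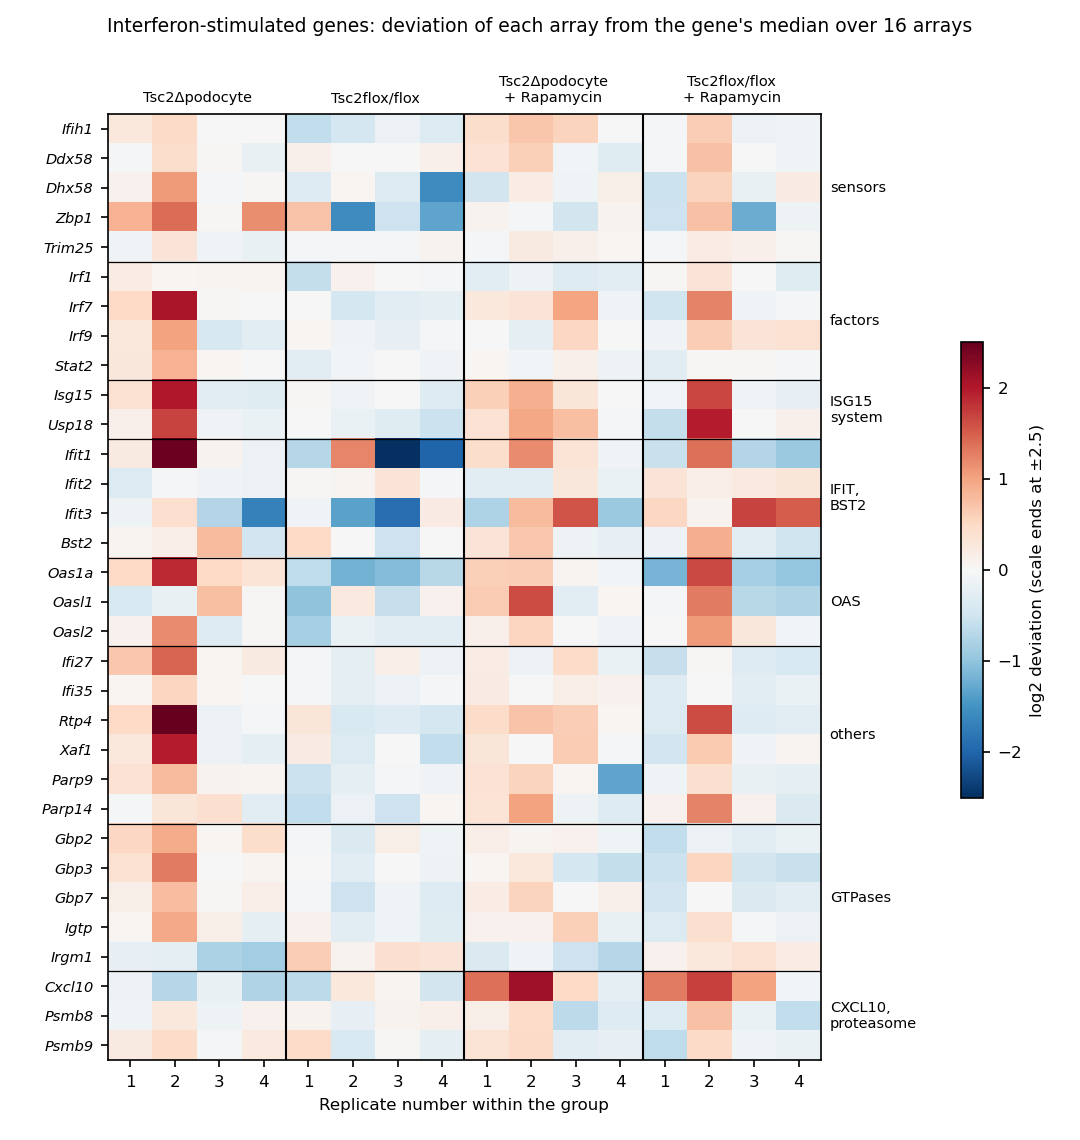
Deviation of each array (columns, 4 replicates in each of 4 groups) from the gene's median over 16 arrays, in log2 units, for the 32 tested interferon-stimulated genes in rows ordered by role. Replicate 2 of Tsc2Δpodocyte and of Tsc2flox/flox + Rapamycin appear as red columns through most rows, Irgm1 is blue in both Tsc2Δpodocyte groups, and Cxcl10 is red in most rapamycin arrays.

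Between untreated genotypes, 4 of the 32 members were higher in Tsc2Δpodocyte than in Tsc2flox/flox podocytes and 1 was lower. Oas1a, Zbp1, Gbp2 and Ifih1 rose, by 3.25-fold, 2.91-fold, 1.49-fold and 1.49-fold. Zbp1 was well above background on all 4 arrays in untreated Tsc2Δpodocyte cells alone. Its entry to the test thus depended on the group where it was called higher. Irgm1, an immunity-related GTPase that acts on intracellular vacuoles, fell to 54.1% of the control level. By the same rule, an adjusted p under 0.05 in limma, 10.3% of all genes were called higher and 9.2% lower, so 12.5% of the members called higher lay near the background. The median log2 difference over the members was 0.46, with 28 fitted higher and 4 lower, beside -0.01 over all genes. In 7 members the 4 Tsc2Δpodocyte values all lay above the 4 control values, where 13.5% of all genes did so (Ifih1, Irf7, Stat2, Oas1a, Ifi35, Parp9 and Gbp7). Irgm1 was the 1 member wholly below, where 13.5% of all genes were. Leukocyte markers moved the same way, 10 of the 11 tested being fitted higher with a median of 0.56, and their summed signal ran from 42.7 to 68.9 in Tsc2Δpodocyte and from 41.8 to 58.8 in Tsc2flox/flox cultures. All 7 mesangial markers were fitted higher, with a median of 0.81, and 3 rose (Des, Itga8 and Cnn1). All 6 parietal epithelial markers were fitted lower, with a median of -0.77, and 2 fell (Cdh6 and Pax8). The mesangial sum ran from 698 to 961 in Tsc2Δpodocyte and from 621 to 769 in Tsc2flox/flox cultures, and the parietal sum from 30.0 to 113 and from 66.0 to 155. The part of these cells in the genotype differences was not tested.

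Of the 5 sensors, 2 rose. Ifih1 encodes MDA5, which senses long double-stranded RNA, and its signals were -1.42, -1.20, -1.68 and -1.69 in Tsc2Δpodocyte and -2.30, -2.13, -1.83 and -2.02 in Tsc2flox/flox replicates 1 to 4. The groups did not overlap and no array stood far off, the difference being 0.57 ± 0.19 (SE, adjusted p = 0.0477 by limma). Zbp1 encodes a sensor of left-handed nucleic acid, with signals of -4.12, -3.60, -4.97 and -3.82 against -4.28, -6.57, -5.50 and -6.32. Only replicate 1 of the 4 controls was well above background there, and it lay within the Tsc2Δpodocyte range, so the groups overlapped, and the difference of 1.54 ± 0.48 (adjusted p = 0.0396 by limma) rests on dim control signals. Dhx58, encoding LGP2, gave 0.84 ± 0.34 (adjusted p = 0.102), with 1 of 4 control arrays above background. Ddx58 (RIG-I) and Trim25, a ubiquitin ligase that acts on RIG-I, differed by 0.00 ± 0.21 and -0.01 ± 0.11. A dimmer Trim25 probe gave -0.41 (adjusted p = 0.087), so the 2 Trim25 probes disagreed.

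None of the 4 transcription factors passed. Irf7, the factor that amplifies interferon production, had signals of 0.42, 1.96, -0.05 and -0.06 in Tsc2Δpodocyte and -0.09, -0.51, -0.35 and -0.33 in Tsc2flox/flox cells. The Tsc2Δpodocyte values all lay above the controls, but replicate 2 stood 1.85 above the mean of the other 3, and the difference of 0.89 ± 0.43 did not pass (adjusted p = 0.164 by limma). A dimmer Irf7 probe gave 1.39 (adjusted p = 0.076). Stat2 differed by 0.41 ± 0.16 (adjusted p = 0.084), Irf1 by 0.22 and Irf9 by 0.22, neither passing.

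The ISG15 system followed the single culture most closely. Isg15 signals were 1.65, 3.27, 1.01 and 0.97 in Tsc2Δpodocyte against 1.30, 1.18, 1.25 and 0.94 in Tsc2flox/flox cells. Replicate 2 alone stood over 1.5 above every other array of the slide, and replicates 3 and 4 lay within the control range. Usp18, the protease that removes ISG15 and restrains receptor signalling, had -3.03, -1.47, -3.25 and -3.34 against -3.18, -3.32, -3.47 and -3.70. Here too replicates 3 and 4 lay within the control range, replicate 1 just above it and replicate 2 apart. The differences of 0.56 ± 0.48 for Isg15 and 0.65 ± 0.49 for Usp18 did not pass (adjusted p = 0.443 and 0.378 by limma).

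Among IFIT genes and Bst2 none passed. Ifit1, whose product binds foreign RNA caps, had signals of -4.35, -2.12, -4.48 and -4.73 in Tsc2Δpodocyte against -5.29, -3.36, -7.25 and -6.58 in Tsc2flox/flox cells, where replicate 2 was the 1 array well above background. Its difference of 1.70 ± 0.78 did not pass (adjusted p = 0.148 by limma). Ifit3 spread over more than 2-fold within both groups, -1.17, -0.62, -1.78 and -2.74 against -1.14, -2.38, -2.96 and -0.85, and overlapped fully. Its probe may also read the near-identical copy Ifit3b, so its value is uncertain. Ifit2 differed by -0.24 and Bst2, which tethers budding virus, by 0.14. Rsad2, encoding viperin, was well above background in 1 Tsc2Δpodocyte culture, replicate 2, and in no untreated Tsc2flox/flox culture.

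Of the 2′-5′ oligoadenylate synthetase genes and their relatives, Oas1a rose. The family switches on RNase L, and Oas1a signals were -0.64, 0.73, -0.65 and -0.80 in Tsc2Δpodocyte and -1.78, -2.31, -2.23 and -1.84 in Tsc2flox/flox cells. All 4 Tsc2Δpodocyte arrays, and not replicate 2 alone, lay clearly above the highest control, so the groups did not overlap. The difference was 1.70 ± 0.51 (adjusted p = 0.0343 by limma). The mouse Oas1 family holds near-identical copies that could share this probe, so the value may not be that of Oas1a alone. Oasl1 and Oasl2, related genes, differed by 0.36 and 0.64 and did not pass, and Oas2 and Oas3 were too dim.

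The other 6 tested antiviral members were all fitted higher and none passed. Rtp4, a receptor chaperone induced by interferon, had -1.11, 1.14, -1.76 and -1.67 against -1.32, -2.00, -1.93 and -2.06. Replicate 2 stood 2.66 above the mean of the other 3, of which replicates 3 and 4 lay within the control range. Ifi27 differed by 0.66 ± 0.25 (adjusted p = 0.083 by limma), Xaf1 by 0.65, Parp9 by 0.56, Parp14 by 0.41 and Ifi35 by 0.27.

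The GTPases moved in both directions. Gbp2, a guanylate-binding protein, had signals of 0.35, 0.75, -0.12 and 0.26 in Tsc2Δpodocyte against -0.23, -0.54, -0.03 and -0.28 in Tsc2flox/flox cells. Replicate 3 of the Tsc2Δpodocyte group overlapped the controls and the other 3 lay above them, the difference being 0.58 ± 0.17 (adjusted p = 0.0269 by limma). Gbp7 differed by 0.52 ± 0.17 without overlap (adjusted p = 0.0521), and Gbp3 and Igtp by 0.54 and 0.37. Irgm1 signals were 2.45, 2.43, 1.86 and 1.79 in Tsc2Δpodocyte and 3.27, 2.76, 3.06 and 2.98 in Tsc2flox/flox cells. Every Tsc2Δpodocyte culture, replicate 2 included, lay below every control, and the difference was -0.89 ± 0.17 (adjusted p = 0.0033 by limma). The other 2 Irgm1 probes gave -0.92 and -0.95 (adjusted p = 0.001 and 0.002 by limma). Cxcl10, a chemokine, and the immunoproteasome subunits Psmb8 and Psmb9 differed by -0.25, 0.02 and 0.24, none passing.

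Leaving arrays out separated Irgm1 from the members that rose. Without Tsc2Δpodocyte replicate 2 no member rose and Irgm1 alone fell, and without Tsc2flox/flox replicate 4 no member rose either. The share of all genes called was not counted in fits with a single array left out. Gbp2 was lost without Tsc2flox/flox replicate 2 or 4 or without Tsc2Δpodocyte replicate 1, 2 or 4, and Oas1a without any 1 of the 4 Tsc2flox/flox cultures or Tsc2Δpodocyte replicate 2. Zbp1 was lost without Tsc2flox/flox replicate 2, 3 or 4, Tsc2Δpodocyte replicate 1, 2 or 4, or a rapamycin array (Tsc2flox/flox replicate 4 or Tsc2Δpodocyte replicate 1). Ifih1 was kept only without Tsc2flox/flox replicate 3 or without replicate 2 of Tsc2flox/flox + Rapamycin or replicate 2 or 4 of Tsc2Δpodocyte + Rapamycin. The fitted log2 differences then lay between 0.43 and 0.60 for Gbp2, 1.35 and 1.79 for Oas1a, 1.24 and 1.60 for Zbp1 and 0.47 and 0.64 for Ifih1. Irgm1 passed in all 28 alternatives, between -1.05 and -0.77. With Tsc2Δpodocyte replicate 2 and Tsc2flox/flox + Rapamycin replicate 2 left out together, Oas1a rose by 1.35 ± 0.19 (adjusted p = 0.0011 by limma) while Irgm1 fell by 0.98 (adjusted p = 0.0048 by limma). These were the 1 member called higher and the 1 called lower, where 7.2% of all genes were higher and 7.12% lower, and the median over the members was 0.23.

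**Figure D3:**
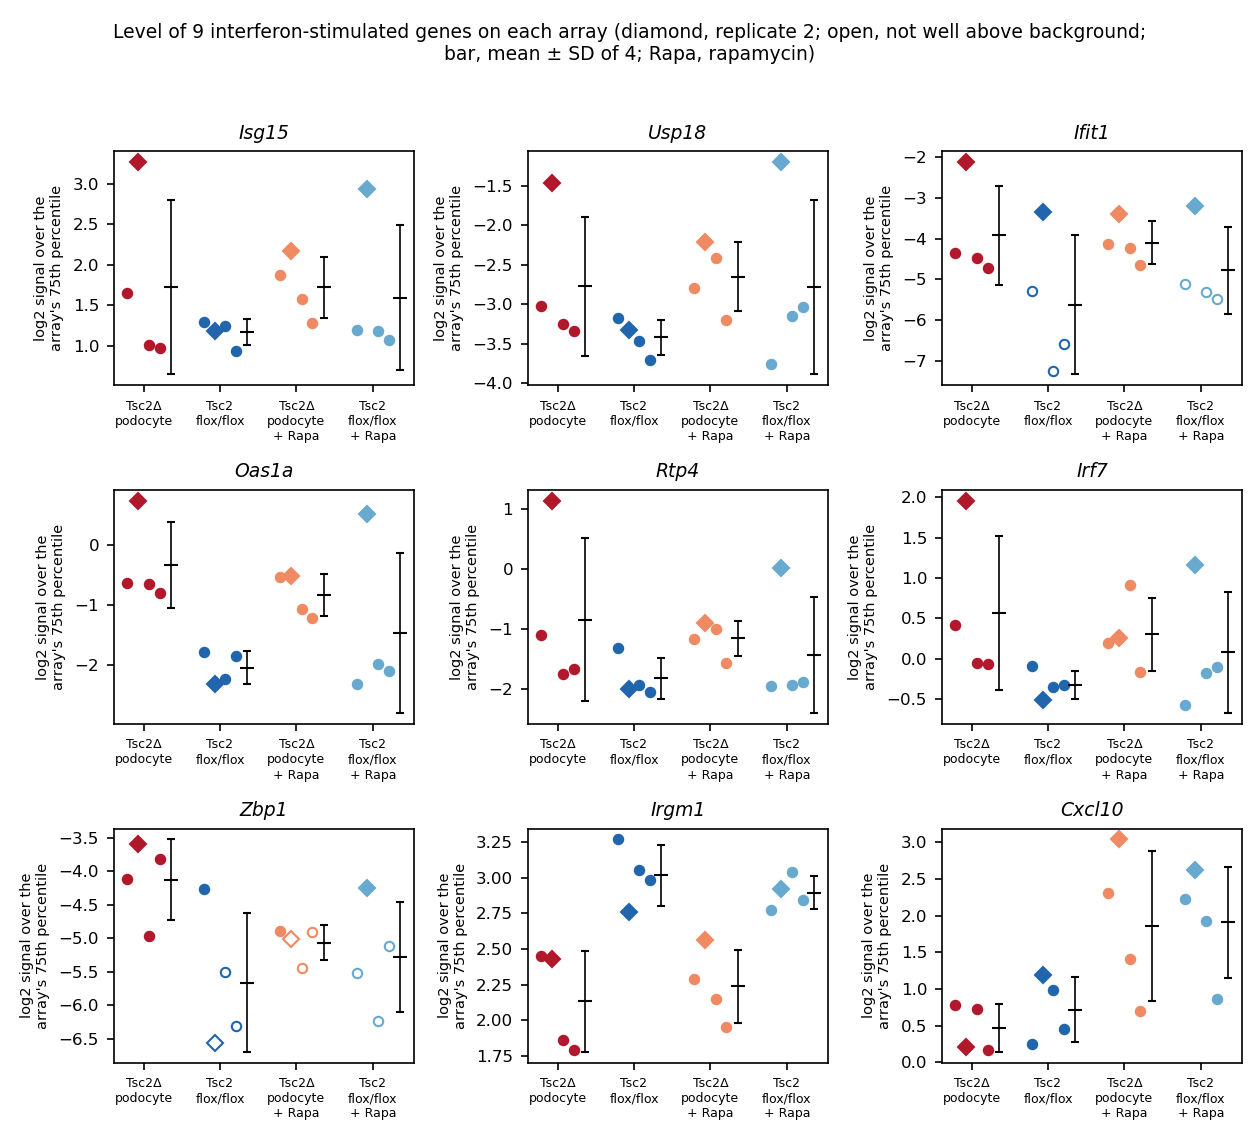
Normalized log2 signal of 9 interferon-stimulated genes on each of the 16 arrays, with the mean and SD of each group of 4 beside the points; diamonds mark replicate 2 and open symbols signals not well above background. Isg15, Usp18, Rtp4 and Oas1a show the isolated high diamonds of Tsc2Δpodocyte and Tsc2flox/flox + Rapamycin, and Irgm1 is lower in both Tsc2Δpodocyte groups.

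After rapamycin, the genotypes differed in 1 member. Irgm1 fell to 63.4% of the control level, and no member rose, where 6.2% of all genes were called higher and 4.97% lower by limma. The median over the members was 0.13, with 22 fitted higher and 10 lower, beside 0.01 over all genes. An unadjusted p under 0.05 was reached by 5 of 32 members, where 27.3% of all genes reached it. By the methods' t-test none passed in either direction after Benjamini-Hochberg adjustment, a rule for which the share of all genes was not counted. Gbp2 and Gbp7 were the 2 members wholly above the controls, against 10.7% of all genes, and Irgm1 the 1 wholly below, against 7.49%. Of the marker lists, 5 of 11 leukocyte markers were fitted higher and none passed, Des, a mesangial marker, rose by 1.28, and the parietal markers Cdh6 (-1.90) and Pax8 (-1.14) and the tubule marker Lrp2 (-1.84) fell. Lrp2 had also fallen in untreated cells (-1.57). Their part in the values of the members was not tested.

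Irgm1 signals were 2.29, 2.56, 2.15 and 1.95 in Tsc2Δpodocyte + Rapamycin and 2.78, 2.92, 3.04 and 2.84 in Tsc2flox/flox + Rapamycin cells. The groups did not overlap, and the difference was -0.66 ± 0.17 (adjusted p = 0.0266 by limma). The other probes gave -0.58 and -0.54 (adjusted p = 0.022 and 0.064 by limma). The call was lost without Tsc2flox/flox + Rapamycin replicate 3 or 4 or Tsc2Δpodocyte + Rapamycin replicate 1, 3 or 4, at differences between -0.68 and -0.56.

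Oas1a signals were -0.54, -0.53, -1.07 and -1.21 in Tsc2Δpodocyte + Rapamycin and -2.31, 0.51, -1.98 and -2.10 in Tsc2flox/flox + Rapamycin cells. All 4 Tsc2Δpodocyte arrays lay above 3 of the controls and below the fourth, replicate 2, which was 2.64 above the mean of its group's other 3. The difference over all arrays was 0.63 (adjusted p = 0.475 by limma).

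Isg15 showed the same arrangement, with 1.87, 2.17, 1.58 and 1.29 in Tsc2Δpodocyte + Rapamycin and 1.19, 2.93, 1.18 and 1.07 in Tsc2flox/flox + Rapamycin cells. Usp18 had -2.79, -2.21, -2.41 and -3.20 against -3.76, -1.20, -3.15 and -3.03, and Rtp4 -1.16, -0.90, -1.01 and -1.57 against -1.96, 0.02, -1.93 and -1.88. For each of these 3 genes the highest of the 8 rapamycin arrays was replicate 2 of the controls, and their differences were 0.13, 0.13 and 0.28, none passing. Ifit1 had -4.12, -3.39, -4.23 and -4.66 against -5.12, -3.20, -5.31 and -5.49, and replicate 2 was the 1 control culture well above background. Zbp1 was above background on 1 array of each rapamycin group, and Rsad2, not tested, on 3 Tsc2Δpodocyte + Rapamycin arrays and on replicate 2 of the controls.

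With the same 2 cultures left out, 4 members rose on the rapamycin slide, where 6.23% of all genes were called higher. These were Oas1a (1.29 ± 0.19, adjusted p = 0.0025 by limma), Ifi35 (0.37, adjusted p = 0.0146), Gbp7 (0.59, adjusted p = 0.0206) and Rtp4 (0.77, adjusted p = 0.037). Irgm1 fell by 0.65 (adjusted p = 0.0412 by limma), where 6.05% of all genes were called lower. Isg15 and Usp18 gave 0.58 and 0.66 (adjusted p = 0.092 for both). The median over the members was 0.36, beside 0.00 over all genes. Without Tsc2flox/flox + Rapamycin replicate 2 alone, 1 member rose, with the share of all genes not counted. On this slide the fit dropped the control culture with the highest members and kept replicate 2 of Tsc2Δpodocyte + Rapamycin, also highest of its group in 21 members, so higher differences follow from that choice. These values describe the remaining 14 arrays and are no test of the genotypes.

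**Figure D4:**
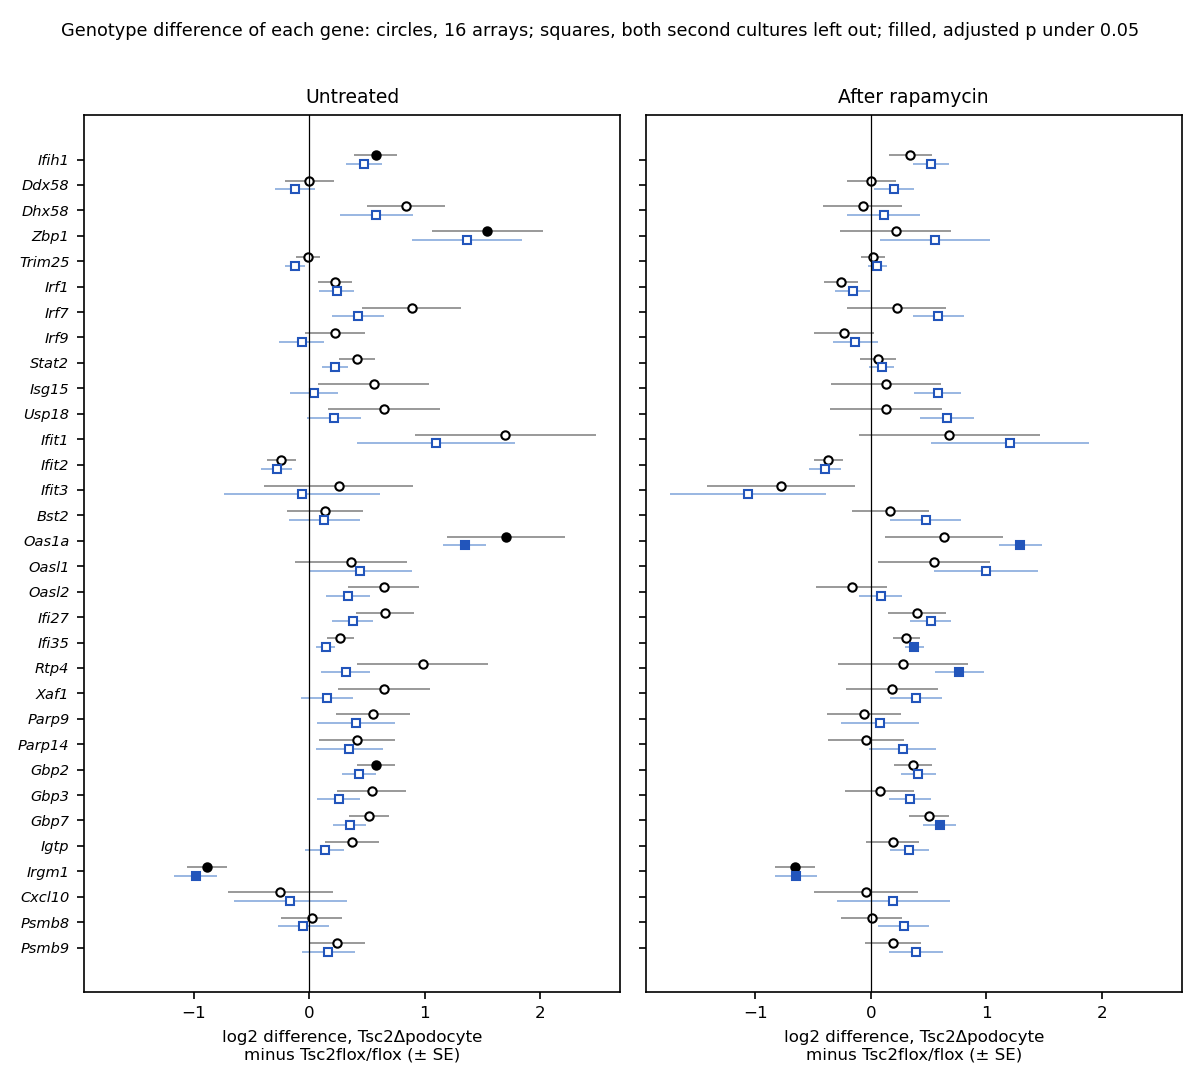
Log2 difference (± SE) between Tsc2Δpodocyte and Tsc2flox/flox cells for each of the 32 tested interferon-stimulated genes, untreated (left) and after rapamycin (right), over 16 arrays (circles) and without Tsc2Δpodocyte replicate 2 and Tsc2flox/flox + Rapamycin replicate 2 (squares); filled symbols have an adjusted p under 0.05. Leaving the 2 cultures out moved most untreated differences down (median 0.46 to 0.23) and most rapamycin differences up (median 0.13 to 0.36), and Irgm1 stayed negative in all 4.

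Between rapamycin and untreated cultures no member passed in either genotype. In Tsc2flox/flox cells the median over the members was 0.21 and 4 of 32 had an unadjusted p under 0.05, against 15.9% of all genes. With adjustment limma called 0.106% of all genes higher and 0.0568% lower. In Tsc2Δpodocyte cells the median was -0.09 and 3 of 32 had an unadjusted p under 0.05, against 24.2% of all genes. With adjustment 1.97% of all genes were called higher and 1.53% lower. By the methods' t-test, adjusted in the same way, no member passed either, with the share of all genes not counted. Ifih1 and Oasl2 were wholly above the untreated values in Tsc2flox/flox cells (5.53% of all genes) and no member was wholly below (5.22%). In Tsc2Δpodocyte cells Irf1 was wholly below (6.4%) and no member wholly above (8.09%).

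Cxcl10, which attracts T cells and was the member with the lowest p in Tsc2Δpodocyte cells, had untreated signals of 0.78, 0.20, 0.73 and 0.17 in Tsc2Δpodocyte and 0.26, 1.19, 0.98 and 0.45 in Tsc2flox/flox cells. After rapamycin the signals were 2.30, 3.04, 1.41 and 0.70 in Tsc2Δpodocyte and 2.22, 2.62, 1.93 and 0.86 in Tsc2flox/flox cells. In both genotypes 3 of 4 rapamycin arrays lay above every untreated array of that genotype and replicate 4 did not. The differences were 1.39 ± 0.45 in Tsc2Δpodocyte (adjusted p = 0.0944 by limma) and 1.19 ± 0.45 in Tsc2flox/flox cells (adjusted p = 0.229 by limma). Ifit3 signals after rapamycin were -1.81, -0.24, 0.53 and -1.97 in Tsc2Δpodocyte and -0.53, -0.95, 0.64 and 0.46 in Tsc2flox/flox cells, and its difference of 1.74 ± 0.64 in the latter did not pass (adjusted p = 0.218 by limma).

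The interaction of genotype and rapamycin was called for no member and for no gene, 0.0% higher and 0.0% lower of all tested genes by limma. Over the members its median was -0.39 and 1 of 32, Irf1, had an unadjusted p under 0.05, against 7.39% of all genes. Without the 2 cultures the median was 0.15, so its sign turned.

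Genes upstream in the pathway were read from lists drawn up by role. Of 16 ligand genes 13 were matched, and Ifnl3, an interferon lambda gene, was the 1 that could be tested, with signals between -4.65 and -3.37 over all arrays. Ifnb1, Ifna4, Ifna11 and Ifng were not well above background on any array, the 2 high cultures included. Ifna1 and Ifna14 were above background on 4 and 6 of 16 arrays, in both genotypes, Ifna5 on 2 and Ifna2 and Ifna13 on 1 each. Ifnab was above background on 4 arrays, all of Tsc2Δpodocyte cultures, 2 untreated (replicates 2 and 3) and 2 after rapamycin (replicates 1 and 3). Its untreated signals were -5.22, -4.92, -5.07 and -5.30 in Tsc2Δpodocyte and -6.88, -7.44, -5.66 and -6.49 in Tsc2flox/flox cells, and after rapamycin -4.59, -5.79, -4.78 and -4.97 against -5.24, -6.56, -5.78 and -5.46. The untreated values did not overlap and the rapamycin values did, and the probe was too dim to be tested. Interferon alpha genes are near-identical copies, so their probes may share targets. Ifnk and Ifne were each above background on a single array, Tsc2Δpodocyte replicate 2 at -3.95 for Ifnk and Tsc2flox/flox replicate 4 at -2.61 for Ifne.

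All 6 receptor genes were expressed and 1 rose in untreated cells, where 10.3% of all genes were called higher. Ifnar2, a chain of the type I receptor, had 2.57, 2.66, 2.38 and 2.41 in Tsc2Δpodocyte against 2.07, 2.10, 2.00 and 1.56 in Tsc2flox/flox cells. The groups did not overlap and replicate 2 was close to the others, the difference being 0.57 ± 0.13 (adjusted p = 0.0073 by limma). After rapamycin the difference was 0.21 (adjusted p = 0.317 by limma). Ifnar1, its partner chain, differed by -0.17, Ifngr1 by -0.06, Ifngr2 by -0.21, Il10rb by 0.25 and the interferon lambda chain Ifnlr1 by -0.78 in untreated cells, none passing.

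Among the kinases and further factors, Stat3 rose in untreated Tsc2Δpodocyte cells by 0.47 ± 0.15 (adjusted p = 0.0471 by limma), and none passed after rapamycin. In these lists the shares of all genes called were 10.3% higher and 9.2% lower untreated and 6.2% and 4.97% after rapamycin. Of 14 sensing genes, 4 rose untreated, the adaptors Traf3 (0.69) and Ticam1 (0.47), the receptor Tlr7 (0.89) and the NF-κB subunit Rela (0.36), and 3 after rapamycin (Ticam1 0.68, Traf3 0.41 and Myd88 0.28). Of 10 inhibitors, 1 rose and 1 fell untreated, Ptpn11 by 0.30 and Tnfaip3 by -1.70, the latter encoding A20, which dampens NF-κB signalling. After rapamycin 3 fell, Tnfaip3 (-0.99), Socs1 (-0.85), a blocker of JAK kinases, and Irf2bp2 (-0.54).

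A second list of 52 interferon-induced genes outside the 38 was read in the same way, and 36 of them could be tested. In untreated cells 8 rose and none fell, Slfn2 by 1.93, Ifi204 by 0.80, Tor3a by 0.90, Sp110 by 0.48, Psmb10 by 0.32 and Cd274 by 0.72 having the smallest p. That is 22.2% of the list, against 10.3% of all genes, with a median of 0.25. After rapamycin 4 rose, Sp110 (0.55), Nmi (0.47), Slfn2 (1.20) and Tor3a (0.68), 11.1% against 6.2%, and none fell. In Tsc2Δpodocyte cells Lgals9 (-1.29) and Ifi204 (-0.86) were lower after rapamycin than untreated, where 1.53% of all genes were called lower. Without the 2 high cultures, 5 rose untreated (7.2% of all genes) and 7 after rapamycin (6.23% of all genes). The list was chosen with earlier results of these data known, so its shares describe it and carry no test. Of 11 tested leukocyte markers Cd68, which macrophages express, rose by 1.03 in untreated cells (adjusted p = 0.019 by limma), and none passed after rapamycin.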

How the data were processed

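Total RNA of 16 podocyte cultures, 4 in each of 4 groups taken from the sample titles, was hybridised to one-colour Agilent SurePrint G3 mouse arrays. The authors scanned them with Agilent Feature Extraction 10.7.3.1, and the deposited scanner files hold a linear, background-subtracted intensity per spot. A second deposited table has the authors' log2 values, shifted to the 75th percentile and centred per probe, and served as an alternative (lowest correlation of any array with the centred scanner values, 0.9997).

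Each array's log2 intensities were set relative to its own 75th percentile, with control and outlier spots left out and repeated spots averaged. Of 56605 probes, 33019 were matched to 22913 genes of a RefSeq table (GRCm38.p6) by accession or symbol, and the 27579 probes that every one of the 4 arrays showed well above background, in 1 or more groups, were tested. Group means over all 16 arrays were fitted with limma 3.58.1 under R 4.3.3 (package data.table, version 1.17.8), with eBayes and Benjamini-Hochberg adjustment over all tested probes. A gene rose or fell at an adjusted p under 0.05. The fit was tested on simulated data. The number of arrays limits the precision, and no spot was saturated. Values on every array are given for members that passed or had the highest SDs within a group, and for other lists at most 6 genes that passed, ligands and receptors apart. Some results outside the members are not reported here. The members and lists were chosen with earlier results of these data known. Promoter letters were searched in the 250 bases before each RefSeq start. The alternatives were quantile normalization, normexp with an offset of 50, looser and stricter limits for dim probes and the authors' own deposited log2 values. Others were a fit of the 8 compared arrays alone, Student's t-test, a trended and robust prior, array weights and the replicate number as a block. The methods name that t-test for group comparisons but not for the arrays, and it was used without a limit on the fold change. The last were the mean of a gene's probes, each array left out in turn and, chosen after seeing the data, 2 arrays left out together.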

Additional observations from a re-analysis of the deposited data

Results flagged for a closer look

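In groups of 4 arrays, the highest or lowest value was set apart by Dixon's ratio at its 95% critical value in 15 of 128 pairs of member and group, where chance flags about 1 in 20, or 6.4. In Tsc2flox/flox + Rapamycin, replicate 2 was the high array in 7 of these, with normalized log2 signals of -1.07 for Ifih1, 2.48 for Ddx58, 2.93 for Isg15, -3.20 for Ifit1, 0.51 for Oas1a, 0.0179 for Rtp4 and -1.19 for Gbp3. In Tsc2Δpodocyte, replicate 2 was the high array in 5, at -3.62 for Dhx58, -1.47 for Usp18, -2.12 for Ifit1, 0.73 for Oas1a and 3.85 for Ifi35. The other 3 lay in untreated Tsc2flox/flox cells on different arrays, Trim25 high in replicate 4 at 3.70, Oasl2 low in replicate 1 at -3.69 and Psmb8 low in replicate 2 at -0.56. None lay in Tsc2Δpodocyte + Rapamycin. Flags of genes on the same array are not independent of each other. The rate of such flags over all tested genes was not counted, so the excess over 6.4 is not shown to be particular to the members. For no member was the genotype difference called different between the slides by the interaction term.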

How the results depend on the processing

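The number of members that rose between untreated genotypes was 4 over 16 arrays. It was 0 with no filter on dim probes, 1 with Student's t-test and 2 with only the 8 arrays compared. With both high cultures (replicate 2 of Tsc2Δpodocyte and of Tsc2flox/flox + Rapamycin) left out, a choice made after seeing the data, it was 1. Leaving out each array in turn gave 0 to 5. After rapamycin (0 over 16 arrays), 2 rose with array weights, 1 with normexp, 1 with quantile normalization and 4 with both high cultures left out, and leaving out each array gave 0 to 2. For the number that fell after rapamycin (1), array weights gave 2, the t-test 0 and no filter 0, and leaving out each array 0 to 1. Between rapamycin and untreated Tsc2Δpodocyte cells array weights called 1 member, Cxcl10 (1.51, adjusted p = 0.0387 by limma). The median of the interaction moved from -0.39 to 0.15 with both high cultures left out. The causes were not tested, beyond the fewer arrays that leaving out and fitting 8 arrays leave. With both high cultures left out, 7.2% of all genes were called higher untreated and 6.23% after rapamycin, against 10.3% and 6.2% over 16 arrays. The shares of all genes were not counted for the other alternatives. Those counts may move with the number of calls over all genes, and are no result about the members alone. Irgm1 fell between untreated genotypes under all 28 alternatives, and no fitted direction of a called member reversed.

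Replicate numbers did not pair the cultures throughout (correlations of same-numbered deviations from -0.33 to 0.46, 7 of 24 over 0.1). The same number was the best match in 4 of 24. Replicate 2 of Tsc2Δpodocyte + Rapamycin and of Tsc2flox/flox + Rapamycin gave the highest, 0.46. Replicate 2 of untreated Tsc2flox/flox gave 0.17 and 0.23 with these. The lowest, -0.33, was between replicate 2 of untreated Tsc2Δpodocyte and of Tsc2flox/flox + Rapamycin. Whether replicate 2 cultures shared a preparation is not stated. With the replicate number as a block, 5 members rose and 1 fell between untreated genotypes, and the share of all genes was not counted. In all, 4 members were too dim for a test, and Zbp1, Dhx58 and Ifit1 had 1 control array above background, which limits their fold changes. Zbp1, Dhx58 and Ifit1 could be tested only because Tsc2Δpodocyte groups had all 4 arrays above background, so the detection limit favours higher values there.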
